A study of Mus musculus with 9 samples.

Results

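The S100 genes encode a family of small calcium-binding proteins, and 10 of them were followed across livers with and without Notch1 and across cell lines grown from liver angiosarcoma. The 10 genes, S100a1, S100a4, S100a6, S100a8, S100a9, S100a10, S100a11, S100a13, S100a14 and S100a16, were chosen by family membership, with their values in all 3 groups of these arrays already in view. All values of the 10 genes are therefore a description, without a test, and where they are counted against a threshold the count is only set beside that over all genes. They are 10 of the 17 S100 genes measured, among 19938 genes in all, and each was read from the probe set of highest mean over the 9 arrays.

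S100 proteins carry a pair of EF-hand loops, act mostly as dimers, and on binding calcium expose a surface through which they hold partner proteins such as annexins and myosin. S100a8 and S100a9 form calprotectin, which neutrophils and monocytes carry in bulk and release as a danger signal to the receptors Tlr4 and Ager. S100a10 and S100a11 pair with annexins at membranes, S100a6 and S100a4 are often described in proliferating, motile or tumour cells, and most of the family lies in 1 cluster of genes on mouse chromosome 3.

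The data are 9 mouse whole-transcript arrays, 3 for each of 3 groups, read as log2 expression that the authors obtained by robust multi-array averaging. The WT liver group holds mice with loxP-flanked Notch1 (Notch1 lox/lox) and no Cre. The KO liver group holds MxCre Notch1 lox/lox mice, in which Cre driven by the interferon-responsive Mx promoter removes the exon for the signal peptide of Notch1, a receptor for signals between neighbouring cells. All these mice were C57Bl/6 and received 300 µg of poly(I:C), an inducer of interferon, on days 0, 3 and 6 from 4 weeks of age, so the controls had the same injections and differed by Cre as well as by Notch1. The AS cell line group holds 3 independently derived lines from hepatic endothelial cells of Notch1 knockout mice with visible angiosarcoma, a cancer of vessel-lining cells, after long-term culture. Each line is 1 culture and is set against an organ, so culture and tumour cannot be told apart. The extraction protocol names PHH, which the labels leave unexplained.

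Several arrays stood apart. Notch1 was at 11.69, 11.02 and 11.71 in the WT livers, at 7.84, 8.75 and 8.52 in the KO livers and at 8.75, 8.61 and 7.83 in the lines. WT replicate 1 and KO replicate 2 received the lowest array weights among the livers, 0.274 and 0.315, and KO replicate 3 was the only array with a high value of the Y-linked gene Eif2s3y (8.66). The labelled origin of the lines was set against 20 endothelial markers, all of which were lower in the lines than in either liver group over all genes tested. Their mean was 11.46 to 11.90 in the livers and 6.35 to 6.61 in the lines, and Cdh5, the cadherin of endothelial junctions, was at 5.47, 5.66 and 5.45 there. Markers of bile duct and other epithelium included 7 of 17 that were higher and 0 lower in the lines than in the KO livers, where 11.4% and 10.1% of all genes were called, among them the keratin Krt19 (11.82, 12.18 and 11.93 against 5.67 to 5.83). Of 10 mesothelial markers, Krt19 among them, 4 were higher and 0 lower, and Msln, the mesothelin gene, was at 11.65, 11.93 and 12.43 against 6.00 to 6.20. Other markers of these 2 lists stayed low or went the other way. Epcam was at 5.71, 5.56 and 6.02 in the lines. In each list 3 differences from the KO livers were negative, such as Cldn7 (-0.24) and Gpm6a (-1.44). Against the WT livers 7 of the 17 were higher and 1, Cldn7, lower, and 3 of the 10 higher and 0 lower (17.6% and 11.1% of all genes). Of 18 hepatocyte markers, 0 were higher and 4 lower than in the KO livers, with 15 of the differences negative and a median of -2.61. Against the WT livers 0 were higher and 11 lower, with a median of -4.43, where 17.6% and 11.1% of all genes were called. Unlike most of the list, some of these markers were not far below the livers, among them Alb, Hnf4a and Apob. Alb, the albumin gene, was at 12.31, 13.67 and 12.82 in the lines, beside 12.14 to 13.86 in the KO and 13.84 to 13.96 in the WT livers. The hepatocyte transcription factor Hnf4a was at 10.95, 11.10 and 10.35, beside 7.16 to 10.35 and 8.84 to 10.53. Apob, an apolipoprotein gene, was at 11.33, 11.76 and 11.81 in the lines, beside 8.48 to 12.43 in the KO and 10.53 to 12.03 in the WT livers. The part of this makeup in the differences described here was not tested.

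The array table has no detection calls, so a level below which a value may be background was taken from genes silent in liver. For each array it is the 95th percentile over 1194 olfactory and vomeronasal receptor genes, and it ran from 5.74 to 6.36. S100a1, S100a10, S100a11, S100a13 and S100a16 lay above it in all 9 arrays, S100a6 in 8, S100a9 in 7 and S100a4 in 6. S100a8 lay above it in 1 array and S100a14 in 0. In WT replicate 1, whose reference was the highest at 6.36, only 5 of the 10 genes were above it. Differences for the genes near this level are understated or may be background.

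**Figure D1:**
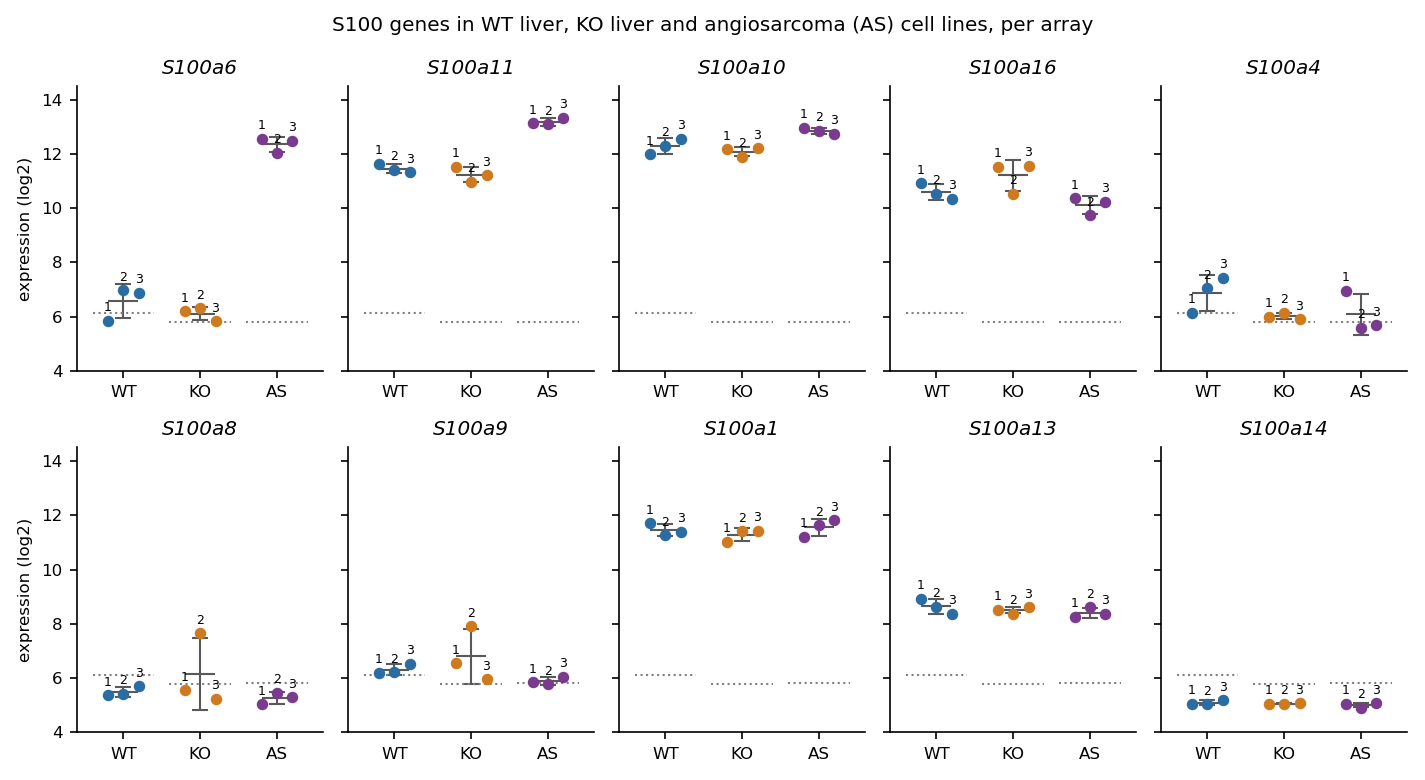
Log2 expression of the 10 S100 genes (y axis) in WT liver, KO liver and angiosarcoma (AS) cell lines (x axis); points are single arrays with their replicate number, bars the group mean and SD, and dotted lines the mean dim reference of the group. S100a6 is at 12.04 to 12.55 in the lines and at 5.83 to 6.98 in the livers, and S100a8 and S100a9 are high in KO replicate 2 alone.

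S100a6, also called calcyclin, was the family member with the widest gap between livers and lines. It was at 5.85, 6.98 and 6.87 in the WT livers, 6.20, 6.31 and 5.83 in the KO livers and 12.55, 12.04 and 12.48 in the lines. All 3 lines thus lay far above all 6 livers, which were near the dim reference, and the lowest line was 5.06 log2 units above the highest liver. The lines exceeded the KO livers by 6.25 (SE 0.195), a ratio of 75.9, and the WT livers by 5.79 (SE 0.338), a ratio of 55.5. Between the liver groups the difference, KO minus WT, was -0.45 (SE 0.330) and the arrays overlapped. Leaving out WT replicate 1 gave -0.81, and leaving out WT replicate 2 instead gave -0.25.

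S100a11, known as calgizzarin and a partner of annexin A1, was also higher in the lines. Its values were 11.63, 11.41 and 11.32 in the WT livers, 11.53, 10.97 and 11.20 in the KO livers and 13.12, 13.08 and 13.34 in the lines. The lowest line lay 1.46 above the highest liver, so the groups did not overlap, and the spread within any group was far smaller than that gap. The difference was 1.95 (SE 0.166, ratio 3.85) against the KO livers and 1.73 (SE 0.123, ratio 3.31) against the WT livers. A second probe set named S100a11, which was not used, read 13.12, 13.12 and 13.35 in the lines and 10.93 to 11.61 in the livers.

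The starts of S100a6 and S100a11 are shown because these genes had the largest differences between lines and livers. The sequences are the RefSeq promoter windows of the build GRCm38.p6, from 250 bases before to 50 after the annotated start, and both genes lie on the plus strand of chromosome 3, at chr3:90612644-90612943 and chr3:93520246-93520545. Windows of this kind were found for 8 of the 10 genes, and S100a10 and S100a14 had none. Capitals mark every match, on either strand, to 5 short motifs: TATAAA (the TATA box), the AP-1 type motif TGANTCA, the GC box type motif GGGCGGG, the motif TGGGAA that is the core bound by Rbpj, the nuclear partner of Notch, and the motif CCAAT. A match on the opposite strand is printed as the window's own strand reads.
S100a6: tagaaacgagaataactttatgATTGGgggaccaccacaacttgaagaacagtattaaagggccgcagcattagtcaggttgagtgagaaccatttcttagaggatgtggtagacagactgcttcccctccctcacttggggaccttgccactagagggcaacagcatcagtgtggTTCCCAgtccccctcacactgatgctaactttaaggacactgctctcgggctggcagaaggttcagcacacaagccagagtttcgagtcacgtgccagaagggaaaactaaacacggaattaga
S100a11: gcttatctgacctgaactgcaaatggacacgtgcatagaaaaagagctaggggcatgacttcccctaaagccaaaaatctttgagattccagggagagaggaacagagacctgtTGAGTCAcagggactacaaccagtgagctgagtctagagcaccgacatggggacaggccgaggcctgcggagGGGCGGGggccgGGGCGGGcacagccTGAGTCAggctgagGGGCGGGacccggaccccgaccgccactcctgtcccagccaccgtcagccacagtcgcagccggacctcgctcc
The S100a6 window holds 1 TGGGAA match at position -74 and 1 CCAAT match at -228, counted from the annotated start to the first base of the match. The S100a11 window holds 2 matches of the AP-1 type motif, at -136 and -38, and 3 of the GC box type, at -64, -52 and -24. None of these matches overlap. Over all 32851 windows of the table, TGGGAA occurs in 25.6%, CCAAT in 37.4%, the AP-1 type motif in 7.81%, the GC box type in 25.6% and TATAAA in 13.6%. The G and C content was 49.3% for S100a6 and 61.7% for S100a11, against a median of 52.7% for all windows. A match is a stretch of letters and says nothing about binding in these cells.

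S100a10, the light chain that joins annexin A2 into a tetramer and holds plasminogen at the cell surface, was bright everywhere and slightly higher in the lines. It stood at 11.99, 12.30 and 12.57 in the WT livers, 12.16, 11.89 and 12.20 in the KO livers and 12.96, 12.84 and 12.74 in the lines. The groups did not overlap, but the lowest line was only 0.17 above the highest liver, WT replicate 3. The differences were 0.76 (SE 0.116, ratio 1.70) against KO and 0.56 (SE 0.165, ratio 1.47) against WT livers.

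S100a16, a broadly expressed member of the family, ran the other way. Its values were 10.92, 10.53 and 10.35 in the WT livers, 11.53, 10.53 and 11.56 in the KO livers and 10.36, 9.74 and 10.23 in the lines. Every line lay below every KO liver, by a mean of -1.09 (SE 0.339, a ratio of 2.14 between the higher and the lower level), while lines and WT livers overlapped by a narrow margin with a difference of -0.49 (SE 0.223), and -0.31 without line replicate 2. KO replicates 1 and 3 were the 2 highest livers and KO replicate 2 equalled WT replicate 2. The difference KO minus WT was accordingly 0.60 (SE 0.323), and 0.94 without KO replicate 2.

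S100a8 and S100a9, the calprotectin pair, were set apart by 1 liver. S100a8 was at 5.37, 5.43 and 5.71 in the WT livers, 5.55, 7.66 and 5.24 in the KO livers and 5.04, 5.46 and 5.30 in the lines. KO replicate 2 was 1.96 above the next highest array and the only one above the dim reference. S100a9 was at 6.21, 6.21 and 6.53 in the WT livers, 6.54, 7.91 and 5.96 in the KO livers and 5.85, 5.77 and 6.05 in the lines. Again KO replicate 2 stood alone, 1.36 above the next array. The differences KO minus WT of 0.65 (SE 0.650) and 0.49 (SE 0.497) turned to -0.11 and -0.07 without KO replicate 2. For lines minus KO livers they were -0.88 (SE 0.667) and -0.91 (SE 0.506), and without that array -0.12 and -0.36. S100a9 was lower in all 3 lines than in all 3 WT livers, with a difference of -0.43 (SE 0.134), close to the dim reference.

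The windows of this pair are shown because both genes were highest in the same liver, KO replicate 2. They lie next to each other, with S100a8 on the plus strand at chr3:90668821-90669120 and S100a9 on the minus strand at chr3:90695672-90695971, and both are printed in the direction of transcription.
S100a8: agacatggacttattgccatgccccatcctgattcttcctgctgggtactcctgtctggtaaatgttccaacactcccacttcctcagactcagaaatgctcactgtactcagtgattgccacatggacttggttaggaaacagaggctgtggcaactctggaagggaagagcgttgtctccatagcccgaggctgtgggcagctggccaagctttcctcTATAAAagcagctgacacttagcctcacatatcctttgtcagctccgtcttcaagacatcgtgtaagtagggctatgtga
S100a9: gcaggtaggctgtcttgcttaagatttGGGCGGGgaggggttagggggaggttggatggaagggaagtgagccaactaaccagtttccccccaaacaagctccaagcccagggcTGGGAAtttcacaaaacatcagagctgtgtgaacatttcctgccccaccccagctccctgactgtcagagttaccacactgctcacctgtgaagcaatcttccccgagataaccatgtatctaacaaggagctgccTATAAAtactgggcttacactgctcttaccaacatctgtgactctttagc
Each window holds 1 TATAAA match, at -30 in S100a8 and at the annotated start itself, position 1, in S100a9. The S100a9 window also holds a GC box type match at -223 and a TGGGAA match at -136. S100a4 is the other one of the 8 genes with a TATAAA match, at -31, and S100a1 and S100a13, whose windows face each other and share 204 bases, hold none of the 5 motifs.

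S100a4, known as metastasin or fibroblast-specific protein and a binder of non-muscle myosin, varied widely within the WT livers and the lines. It was at 6.14, 7.05 and 7.43 in the WT livers, 6.01, 6.14 and 5.91 in the KO livers and 6.95, 5.60 and 5.69 in the lines. WT replicates 2 and 3 were the highest, WT replicate 1 lay with the KO livers, and 1 line was well above the dim reference while the other 2 were below it. The difference KO minus WT was -0.86 (SE 0.332), and -1.22 without WT replicate 1. The lines differed from the KO livers by 0.06 (SE 0.385) and from the WT livers by -0.80 (SE 0.492). Both values depended on line replicate 1 and were -0.38 and -1.23 without it, and leaving out WT replicate 3 gave -0.52 for the second.

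The other 3 genes did not separate the groups, and S100a1 and S100a13 had ranges of 0.80 and 0.67 over the 9 arrays. S100a1, best known as a regulator of calcium cycling in muscle, was at 11.71, 11.26 and 11.40 in the WT livers, 11.02, 11.41 and 11.42 in the KO livers and 11.21, 11.64 and 11.82 in the lines. S100a13, which takes part in the release of Fgf1 and Il1a from cells without a signal peptide, was at 8.93, 8.64 and 8.37, then 8.52, 8.38 and 8.61, then 8.26, 8.61 and 8.37 in the same order. All 3 groups overlapped for both genes, and the differences lay between -0.23 and 0.27. S100a14, an epithelial member, was at or below the dim reference in all 9 arrays, with a range of 0.28 over them, so no level can be given for it.

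Counted over the family as a description, 0 of the 10 genes were past an adjusted p of 0.05 between KO and WT livers in either direction, as were 0% of all genes in limma. An unadjusted p under 0.05 was found in that comparison for 4479 of the 19938 genes. No member had KO arrays all above (0 of 10, against 19.2% of all genes) or all below (0 of 10, against 11.1%) the WT arrays. Between lines and KO livers, S100a6, S100a10 and S100a11 counted as called higher and 0 as called lower, where 11.4% and 10.1% of all genes were called. Between lines and WT livers, S100a6 and S100a11 counted as higher and 0 as lower, where the shares were 17.6% and 11.1%. The medians of the 10 differences were -0.16, 0.01 and -0.16 for KO minus WT, lines minus KO and lines minus WT, beside -0.00, 0.05 and 0.02 over all genes. Both comparisons of the lines use the same 3 line arrays, and nothing is read from these counts because the family was chosen with the results known.

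**Figure D2:**
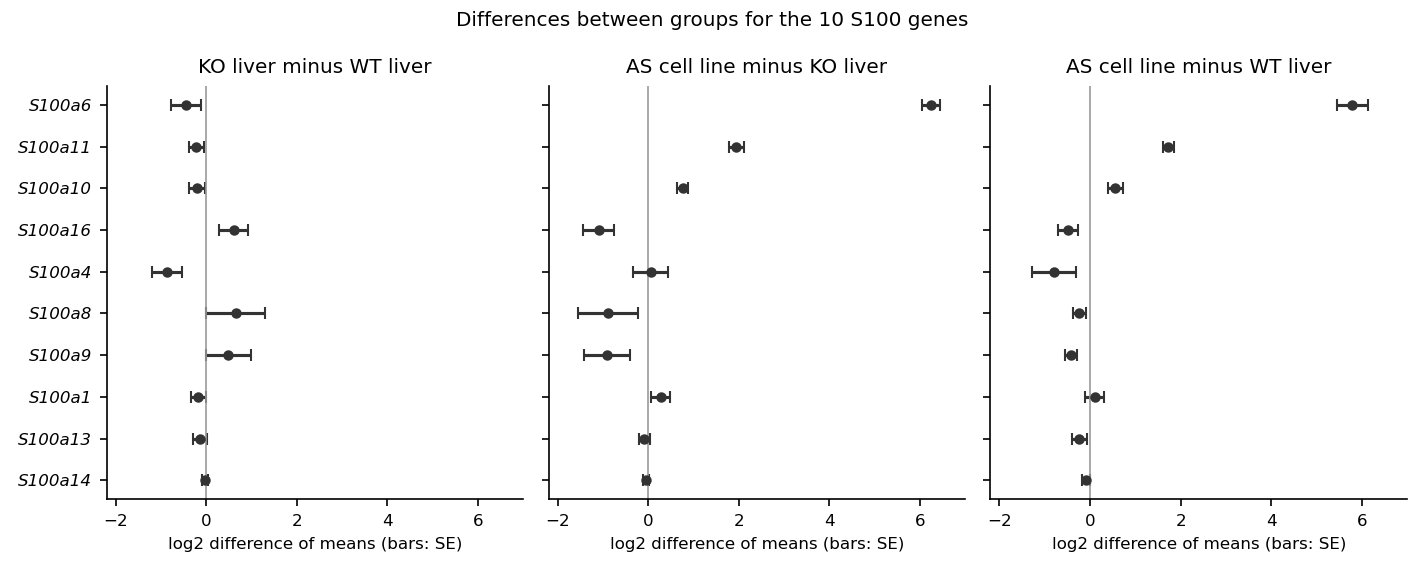
Differences of group means (x axis, log2) for each of the 10 S100 genes (y axis), with bars for the standard error, in KO minus WT livers, lines minus KO livers and lines minus WT livers. S100a6 at 6.25 and 5.79 and S100a11 at 1.95 and 1.73 stand to the right of the other genes, and the points for the livers lie between -0.86 and 0.65.

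Differences among the livers ran beside markers of cell types. KO replicate 2, where S100a8 and S100a9 were highest, was also the highest of the 6 livers for 11 of 18 neutrophil markers, 8 of 17 macrophage markers, 8 of 18 hepatocyte markers and 15.5% of all genes. Ngp, a protein of neutrophil granules, was at 8.83 there and at 5.52 to 7.17 in the other 5 livers, and the protease Prtn3 at 7.06 against 5.70 to 6.43. Other markers of the list did not peak there. Mpo was highest in KO replicate 1 (7.47 against 7.02), and Mmp9 was lower in KO replicate 2 (8.04) than in every WT liver (8.21 to 8.39). Some of the 11 were near ties, such as Cd177 (6.94 against 6.93 in WT replicate 3) and Ly6g (5.34 against 5.33 in WT replicate 1). The log2 of the summed level of the neutrophil list was 10.36 to 10.60 in the WT livers, 10.48, 11.03 and 10.02 in the KO livers and 9.59 to 9.82 in the lines. Its defining members Ly6g and Cxcr2 were above the dim reference in 0 of 9 arrays. In bulk RNA, fewer cells of a type and less RNA per cell cannot be told apart, and the part of such cells in the S100a8 and S100a9 values was not tested.

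S100a4, S100a6 and S100a10 had WT replicates 2 and 3 as the 2 highest livers, a pattern shared by 16 of 17 T and NK cell markers and by 8.25% of all genes. The mean of that list was 6.43, 8.20 and 8.15 in the WT livers and 6.57, 6.61 and 6.75 in the KO livers, and the log2 of its summed level 10.75, 13.19 and 13.07 against 10.88 to 11.14. Cd3e, a chain of the T cell receptor complex, was at 7.35, 9.76 and 9.75 in the WT livers and at 7.35, 7.35 and 7.65 in the KO livers. In the lines the list was at 5.55 to 5.76 and S100a6 at 12.04 to 12.55. The part of T and NK cells in the S100a4, S100a6 and S100a10 values of the livers was not tested.

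S100a16 was highest in KO replicates 1 and 3, as were 15 of 20 endothelial markers and 23.2% of all genes. Proliferation genes had the same 2 arrays highest in 16 of 17, and their mean was 9.51, 8.29 and 9.14 in the KO livers, 7.50 to 7.74 in the WT livers and 10.82, 7.84 and 9.01 in the lines. Between KO and WT livers 15 of these 17 had an unadjusted p under 0.05, and 0 passed after adjustment. KO replicates 1 and 3 were also the 2 lowest livers for 17 of 18 hepatocyte markers and 13.1% of all genes, and the hepatocyte mean was 10.15, 12.34 and 8.97 in the KO livers and 11.30, 12.39 and 12.30 in the WT livers. The endothelial list was far lower in the lines, and S100a16 was at 9.74 to 10.36 there. These patterns were picked after the values were seen, and the part of any cell type in them was not tested.

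**Figure D3:**
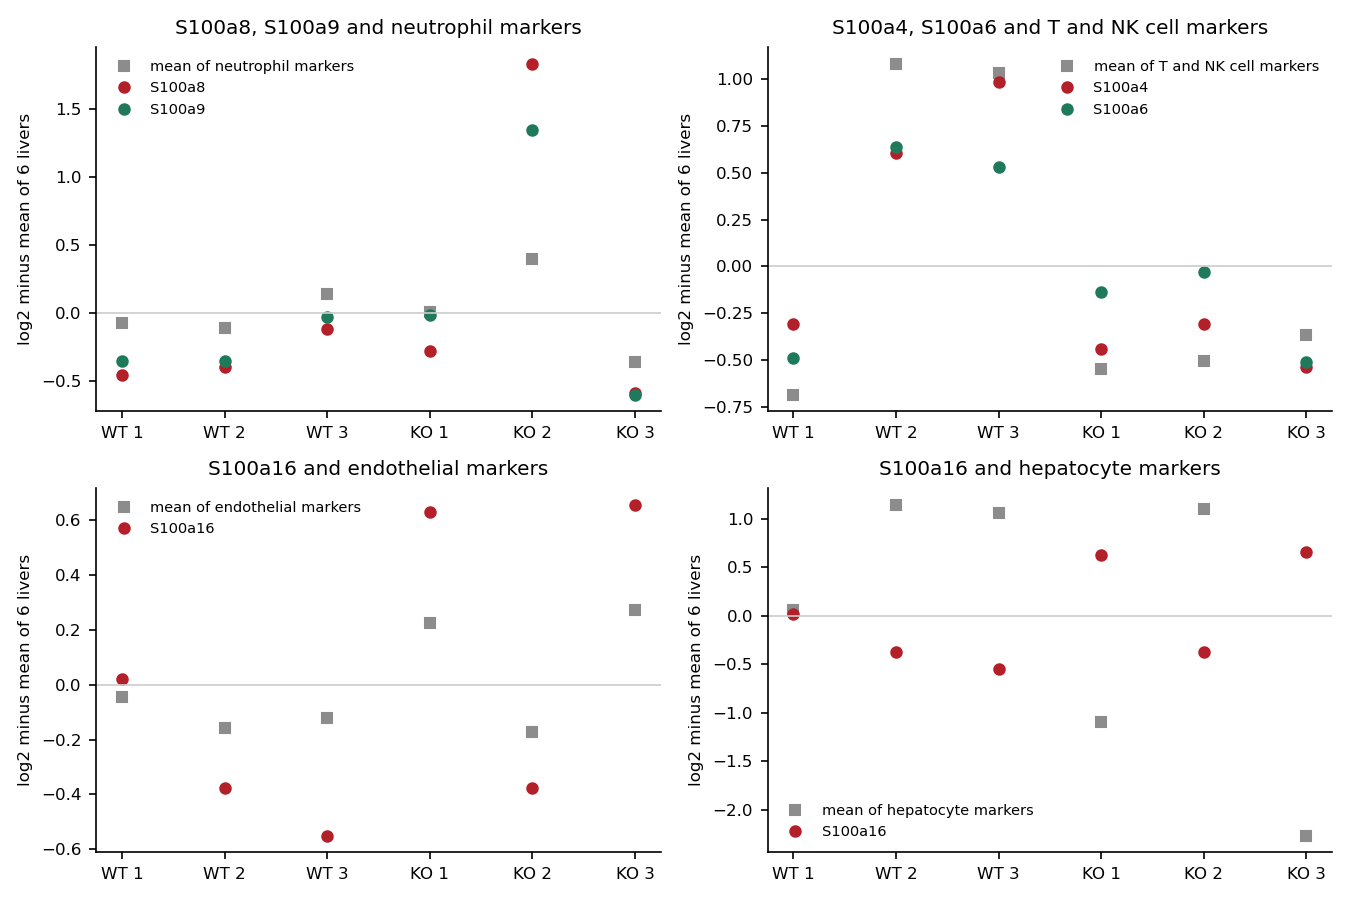
Values of S100 genes and means of marker lists in the 6 livers, each minus its own mean over these livers (y axis, log2), by array (x axis); each point is 1 animal, squares are the marker list and circles the genes. S100a8 and S100a9 peak in KO replicate 2 with the neutrophil list, S100a4 and S100a6 are high in WT replicates 2 and 3 with the T and NK cell list, and S100a16 is high in KO replicates 1 and 3, where the hepatocyte list is lowest.

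Neighbours in the gene cluster differed from each other in direction and size. In RefSeq order on chromosome 3 the genes run from S100a1 through S100a13, S100a14, S100a16, S100a3, S100a2, S100a4, S100a5, S100a6, S100a7a, S100a8 and S100a9, and S100a11 and S100a10 follow farther on as direct neighbours. S100a5, next to S100a6, stayed at 5.25 to 5.36 in all 9 arrays, below the dim reference in each. S100a7a, on its other side, was at 6.49, 6.68 and 6.49 in the WT livers, 6.47, 6.32 and 6.48 in the KO livers and 7.47, 7.86 and 9.23 in the lines. All lines were above all livers, by 1.76 against KO (SE 0.464, adjusted p = 0.0505) and 1.63 against WT (SE 0.454, adjusted p = 0.0455). These values lie on either side of the threshold. The call against WT was lost without line replicate 2 (0.0692) or without WT replicate 1 (0.130), 2 (0.117) or 3 (0.129), and the comparison with KO passed without line replicate 1 (0.0374) or 3 (0.0110). S100a7a was the only 1 of the 7 measured S100 genes outside the 10 to pass in the comparison with WT livers, and 0 of 7 passed in that with KO livers. S100a3 differed from the KO livers by 0.44 (SE 0.156, adjusted p = 0.115) and S100z by 0.34 (SE 0.116, adjusted p = 0.0998), while S100a2, S100b and S100g differed by 0.06, 0.13 and 0.14.

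**Figure D4:**
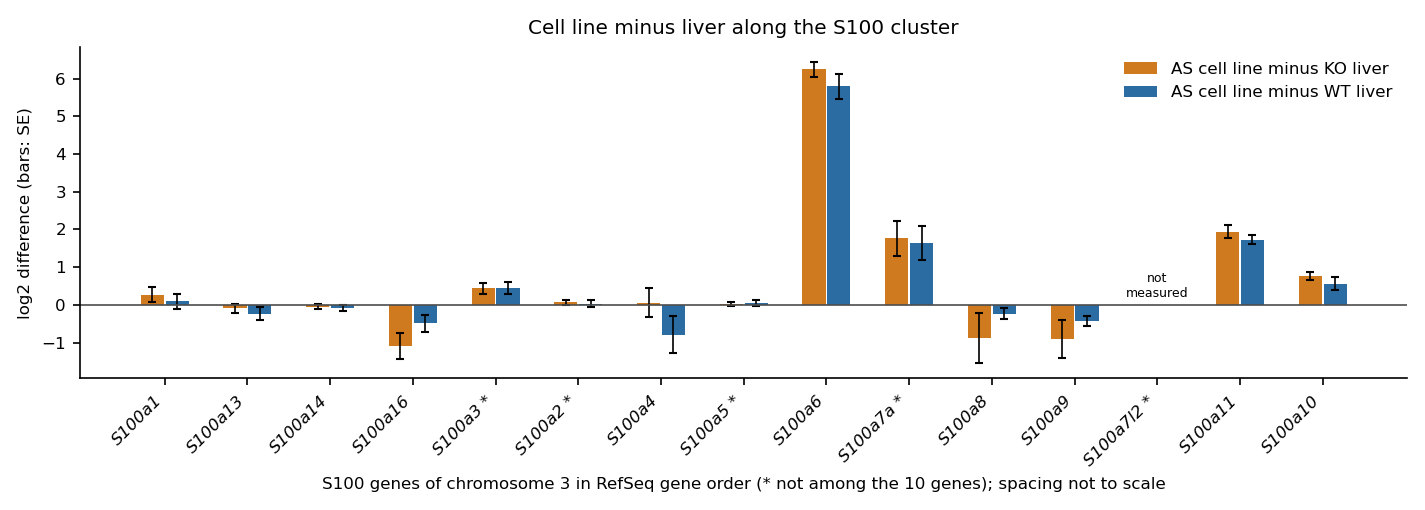
Lines minus KO livers and lines minus WT livers (y axis, log2, bars for the standard error) for the S100 genes of chromosome 3 in RefSeq order (x axis, not to scale). S100a6 and S100a7a, with 6.25 and 1.76 against KO livers, stand between S100a5 at 0.02 and S100a8 at -0.88, and S100a11 and S100a10 at 1.95 and 0.76 form the other end.

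Other genes around the cluster were mixed as well. Of 14 measured neighbours, 1 rose and 1 fell in the comparison with KO livers, where 11.4% of all genes were called higher and 10.1% lower. Snapin, a vesicle fusion protein, rose by 0.82 (SE 0.117, adjusted p = 0.00782), and Npr1, the receptor for atrial natriuretic peptide, fell by 5.71 (SE 0.140, adjusted p = 3.6e-05). The other 12 did not pass. Of 6 measured genes of the fused S100 type, skin proteins with an S100 domain at one end such as Hrnr and Tchh, 0 passed in any of the 3 comparisons, and their differences from the KO livers were within -0.06 to 0.15.

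Annexins, the membrane-binding proteins that S100a6, S100a10 and S100a11 hold, were mostly higher in the lines. Of 12 measured, 7 rose and 0 fell against the KO livers, with a median difference of 1.67, and 8 rose and 0 fell against the WT livers, with a median of 1.69. Of all genes, 11.4% were called higher and 10.1% lower against KO livers, and 17.6% and 11.1% against WT livers. Anxa2, the partner of S100a10, was at 10.16, 10.58 and 10.40 in the WT livers, 11.15, 10.29 and 11.18 in the KO livers and 12.40, 12.35 and 12.42 in the lines. The lines were nearly alike and above every liver, by 1.51 (SE 0.258, adjusted p = 0.0136) against KO and 2.01 (SE 0.124, adjusted p = 0.000267) against WT. Anxa1, the partner of S100a11, was at 8.01, 8.24 and 8.23, then 8.88, 8.68 and 9.04, then 11.91, 12.40 and 12.12, in the same order. Its 3 groups were fully separate. The lines exceeded the KO livers by 3.28 (SE 0.161, adjusted p = 0.00025), while KO exceeded WT by 0.71 (SE 0.121, adjusted p = 0.0995), which passed only without KO replicate 2 (0.0262) among the leave-outs of 1 array.

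Anxa13, an intestinal and kidney annexin, rose most of the 12, by 5.07 (SE 0.450, adjusted p = 0.0017), from 5.07 to 5.47 in the KO livers to 10.96, 10.68 and 9.33 in the lines. Anxa4 rose by 3.01 (SE 0.129, adjusted p = 0.00017), Anxa8 by 2.94 (SE 0.330, adjusted p = 0.00372), Anxa3 by 2.64 (SE 0.180, adjusted p = 0.000712) and Anxa6 by 1.82 (SE 0.295, adjusted p = 0.0116, and 0.0536 without KO replicate 3). Anxa8, like S100a6, was low in the livers (5.11 to 5.35, below the dim reference) and at 8.89, 7.92 and 7.64 in the lines. Anxa9 passed against the WT livers, with 1.38 (adjusted p = 0.0488), and not against KO, with 1.21 (SE 0.404, adjusted p = 0.0981). The first call was lost without line replicate 1 (0.0976) or WT replicate 1 (0.126), 2 (0.144) or 3 (0.126), and the second comparison passed without line replicate 3 (0.0344). Anxa5 (0.65), Anxa11 (0.30), Anxa7 (0.14) and Anxa10 (0.13), given as lines minus KO livers, did not pass. Between KO and WT livers 0 of 12 passed.

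**Figure D5:**
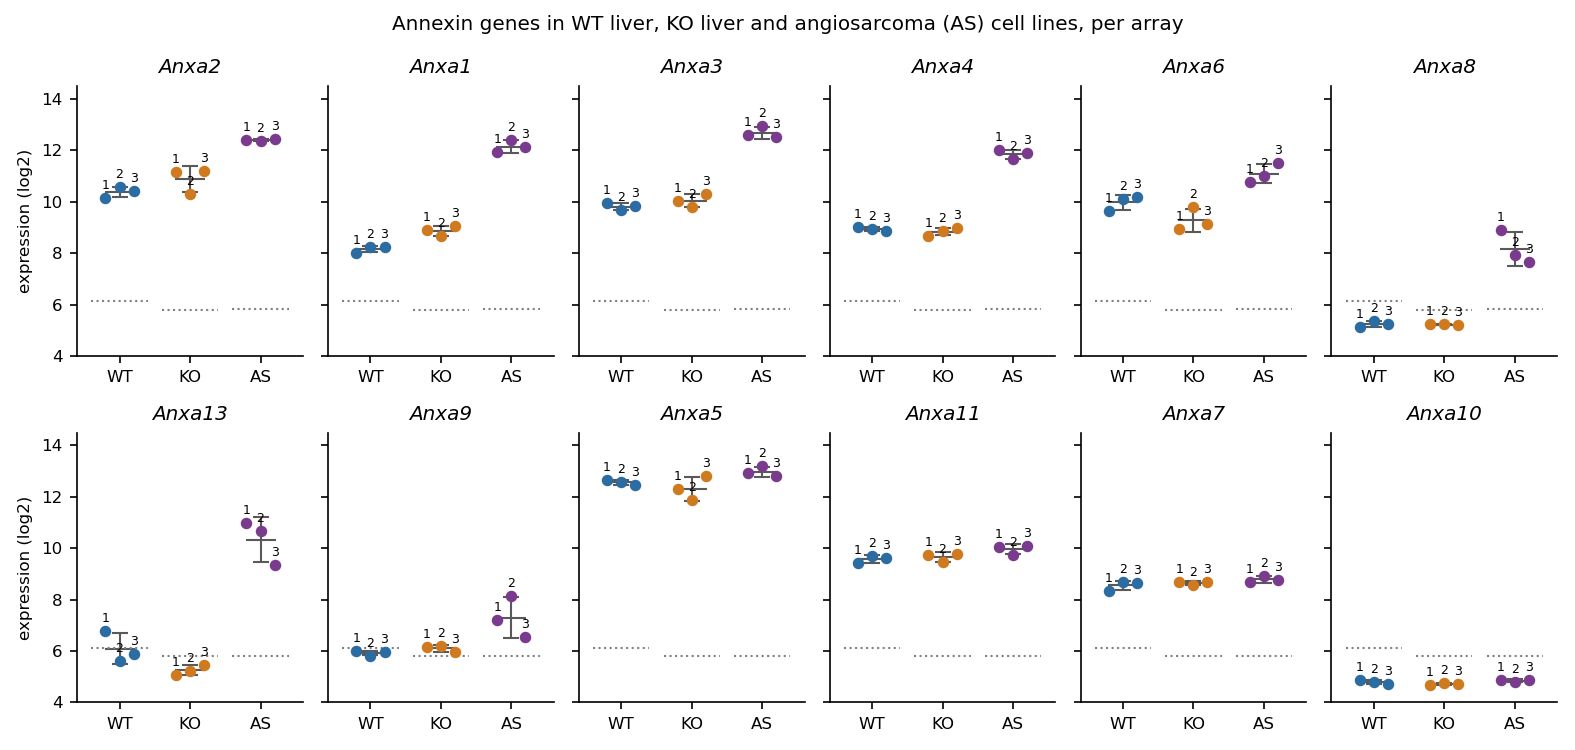
Log2 expression of the 12 annexin genes (y axis) in WT liver, KO liver and AS cell lines (x axis), with points for single arrays, bars for group mean and SD and dotted lines for the mean dim reference of the group. Anxa2 is at 12.35 to 12.42 in the lines and at 10.16 to 11.18 in the livers, while Anxa7 and Anxa11 stay within a narrow range in all groups.

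Among 17 measured intracellular partners, 3 rose and 1 fell in the lines against KO livers (11.4% and 10.1% of all genes), and 1 rose without KO replicate 1 or 3. Ahnak, the giant scaffold bound by S100a10 and Anxa2, was at 8.90, 9.25 and 9.23 in the WT livers, 8.83, 8.46 and 8.96 in the KO livers and 11.03, 10.83 and 10.58 in the lines, a difference of 2.07 from KO (SE 0.179, adjusted p = 0.00157). Sugt1, a co-chaperone bound by S100a6, rose by 0.51 (SE 0.110, adjusted p = 0.0278) and the ubiquitin ligase Stub1 by 0.83 (SE 0.164, adjusted p = 0.0215). Cacybp, the calcyclin-binding protein named after S100a6, was higher in all lines (11.81, 11.04 and 10.60 against 10.26 to 10.34 in KO livers), by 0.86, but did not pass (SE 0.309, adjusted p = 0.116, and 0.0467 without line replicate 3). Myosin heavy chains Myh9 and Myh10, held by S100a4, differed by 0.31 (adjusted p = 0.218) and 0.90 (adjusted p = 0.0950, and 0.0342 without line replicate 3). Il1a, the cytokine exported with S100a13, was at 11.81 to 12.96 in all livers and at 4.86, 4.99 and 5.09 in the lines, a fall of 7.18 (SE 0.232, adjusted p = 7.87e-05), whereas S100a13 itself differed by -0.09. Macrophage markers were also lower in the lines than in the KO livers for 17 of 17 genes, with a median difference of -5.05. The part of macrophages in the Il1a difference was not tested.

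Of 11 receptors and signal proteins for released S100, 2 rose and 4 fell in the lines against KO livers, again beside 11.4% and 10.1% of all genes. Tlr4, the receptor for S100a8 and S100a9, was at 8.31, 7.55 and 7.45 in the WT livers, 8.93, 8.71 and 9.16 in the KO livers and 6.80, 7.51 and 7.31 in the lines. It fell by 1.72 against KO (SE 0.221, adjusted p = 0.00562), but against WT the difference of -0.56 did not pass (adjusted p = 0.224), and its higher level in KO than in WT livers, 1.16 (SE 0.259, adjusted p = 0.109), did not either. With array weights this last difference was 1.44 (adjusted p = 0.00945), and without both WT replicate 1 and KO replicate 2, an alternative chosen after seeing the data, it was 1.55 (adjusted p = 0.0117). Of all 19938 genes, 3905 were called higher and 1839 lower in the first setting, and 2687 and 1667 in the second. Tlr4 passed in no leave-out of 1 array. Its co-receptor Cd14 fell by 1.92 (SE 0.325, adjusted p = 0.0132), the adaptor Myd88 by 1.44 (SE 0.116, adjusted p = 0.00121) and the endothelial adhesion molecule Mcam by 3.34 (SE 0.539, adjusted p = 0.0115, and 0.0529 without KO replicate 3). The part of macrophages, whose markers were all lower in the lines, in the Tlr4, Cd14 and Myd88 differences was not tested. Alcam, an adhesion molecule related to Ager, rose by 3.34 (SE 0.357, adjusted p = 0.00319). Bsg, a receptor for S100a9, rose by 0.69 (SE 0.161, adjusted p = 0.0359), and this call was lost without line replicate 2 (0.0516) or 3 (0.0891) and without KO replicate 1 (0.124), 2 (0.101) or 3 (0.0916). Ager itself differed by 0.22 (adjusted p = 0.392), and the fatty acid receptor Cd36 was split among the lines, at 5.08, 12.17 and 9.12.

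Genes of the plasminogen system, whose zymogen S100a10 holds at the surface, went both ways. Of 7 measured, 2 rose and 2 fell against KO livers, where the shares over all genes were 11.4% and 10.1%. The activator Plat was at 6.53, 6.40 and 6.86 in the KO livers and 10.28, 11.04 and 10.99 in the lines, a rise of 4.18 (SE 0.248, adjusted p = 0.00046). The other activator, Plau, was at 9.07, 8.27 and 8.45 in the WT livers, 10.18 to 11.47 in the KO livers and 7.22, 6.07 and 7.39 in the lines. It fell by 3.99 from KO (SE 0.487, adjusted p = 0.00482), and the excess of KO over WT livers, 2.29 (SE 0.381, adjusted p = 0.0995), passed only without KO replicate 2 (0.0209) among the leave-outs of 1 array. Plgrkt, a plasminogen receptor, rose by 1.16 (SE 0.289, adjusted p = 0.0430), and plasminogen itself (Plg), a hepatocyte product, fell by 4.54 (SE 1.00, adjusted p = 0.0300). The Plgrkt call was lost without line replicate 2 (0.0796) or KO replicate 1 (0.142), 2 (0.113) or 3 (0.109), and the Plg call without line replicate 1 (0.0767), 2 (0.0783) or 3 (0.0791) or KO replicate 1 (0.0982).

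The genes whose pattern over the 9 arrays came closest to each S100 gene were found from the root mean square difference of values centred on each gene's mean. For S100a6 these were Sprr1a, a protein of the epithelial envelope (0.364), the peptide-processing enzyme Cpe (0.412) and the keratin Krt20 (0.419). Sprr1a was at 6.43 to 7.18 in the livers and at 12.69 or above in the lines, and Krt20 at 5.15 to 5.35 and at 11.04, 10.95 and 10.86. S100a9 was followed by the neutrophil protease Prtn3 (0.245), the haem transporter family member Flvcr2 (0.258) and then the olfactory receptor gene Olfr99, and Flvcr2 was also nearest to S100a8 (0.348). S100a4 was followed by the T and NK cell receptor Tigit (0.261), the potassium channel gene Kcnq5 (0.285) and the splicing factor gene Isy1 (0.285). Tigit read 8.16, 9.73 and 9.32 in the WT livers, 7.97 to 8.25 in the KO livers and 9.14, 8.21 and 7.78 in the lines. Nearest to S100a10 was the chaperone Hspa4 (0.125), to S100a11 Ergic1 (0.153) and to S100a16 Armcx1 (0.130). S100a1, S100a13 and S100a14, with ranges of 0.80, 0.67 and 0.28 over the arrays, were nearest to Fthl17f (0.125), Prl4a1 (0.0635) and Smim27 (0.0359). These values describe likeness over 9 arrays and carry no test.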

How the data were processed

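RNA of 6 mouse livers and 3 angiosarcoma cell lines was measured on whole-transcript arrays. The authors deposited 1 log2 expression value for each probe set and array, made with RMA and the oligo package per the submitters' processing notes, of versions not given in the sources used here. RMA brings all arrays to nearly one distribution (array medians 6.53 to 6.63) and hides a shift that most genes share. Of 35556 probe sets, 21789 had 1 gene in the platform annotation, 1621 had several and 12146 were not in it, and the gene ID of 21698 was found in RefSeq. For 999 genes with several probe sets that of highest mean was used, which left 19938 genes.

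For each pair of groups its 6 arrays were fitted in R 4.3.3 with limma 3.58.1 (lmFit, eBayes, both sides tested, no covariates), and p-values were adjusted by Benjamini-Hochberg over the 19938 genes, with 0.05 as the threshold. Called means past that threshold. Ratios are 2 to the power of the log2 difference, higher over lower level. The script was tested on simulated data. Levels were compared between probe sets for the dim reference and in choosing the probe set of each gene. They were added up in the summed levels of marker lists, where bright probe sets weigh most. The labels give separate animals and separately derived lines, so each array is 1 replicate, and their number limits the precision.

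The members and all gene lists were chosen with earlier results of these data known. Besides the members, the text names every measured gene of the other S100 genes and annexins and, from the other lists, genes of largest difference in KO against WT livers or in lines against KO livers, the genes nearest in pattern, and Notch1. Eif2s3y, Cdh5, Krt19, Msln, Epcam, Cldn7, Gpm6a, Alb, Hnf4a, Apob, Cd3e, Ngp, Prtn3, Mpo, Mmp9, Cd177, Sugt1, Stub1, Cacybp, Myh9, Ager, Myd88, Plgrkt, Bsg, Cd14 and most of the EF-hand genes were named for their role or as members of small counts after their values were seen. Alternatives were array weights, leaving out each array, a replicate block, 1 fit over all 9 arrays, a robust fit with an intensity trend, dim genes left out, the mean of all probe sets, repeated quantile normalization and scaling to the 75th percentile. Same-numbered arrays did not deviate together throughout (correlations of deviations from -0.39 to 0.43), so the numbers were not taken to pair samples. Protein sequences were not analysed here. Figures were drawn with matplotlib 3.10.9.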

Additional observations from a re-analysis of the deposited data

How the results depend on the processing

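The members' differences moved by less than the replicate spread in 409 of 417 values under the alternatives. Many of these values could not move further. Leaving out 1 of 3 arrays always shifts a group mean by less than that spread. A replicate block, 1 fit over all 9 arrays, a robust trend fit and dim genes left out do not change a difference. The count is therefore no measure of stability: for S100a8, KO minus WT went from 0.65 to -0.11 without KO replicate 2. Counts of members past the threshold are given as a description and are no test of them. Between KO and WT livers the counts depended on WT replicate 1 and KO replicate 2. With array weights 1 member was called higher (S100a16) and 2 lower (S100a4 and S100a6), and 3 annexins higher and 1 lower. Without both arrays, an alternative chosen after seeing the data, the counts were 1 and 2 for members and 2 and 1 for annexins. Leaving out 1 array gave 0 to 1 members higher and 0 lower, and 0 to 2 annexins higher and 0 to 1 lower. Over all 19938 genes 1671 were called higher and 278 lower without KO replicate 2, 3905 and 1839 with array weights, and 2687 and 1667 without both arrays. Leaving out WT replicate 1 gave 5 and 55, and the other leave-outs of 1 array gave 0. Against KO livers 1 member, S100a16, was called lower with a replicate block, with all 9 arrays, with dim genes left out, with array weights and without KO replicate 2 (leave-out range 0 to 1). Over all genes 1709, 2402, 1915 (of the 11141 kept), 2253 and 1762 were called lower in these settings, in the same order. The replicate block also ended the calls of Bsg (adjusted p = 0.0715), Plgrkt (0.0873) and Plg (0.0507) against KO, and of S100a7a (0.0659) and Anxa9 (0.0786) against WT. Scaling to the 75th percentile ended the calls of Bsg against KO (0.0510) and of S100a7a (0.0562) and Anxa9 (at the threshold) against WT, and array weights that of Plg against KO (0.0515). S100a7a passed against KO with all 9 arrays (0.0125), a robust trend fit (0.0378), dim genes left out (0.0229) and array weights (0.0173), and Anxa9 (0.0341), Myh10 (0.0370) and Cacybp (0.0494) with all 9 arrays. Between KO and WT livers Anxa1, Anxa2, Tlr4, Mcam, Plau, Myh10 and Notch1 passed with array weights (adjusted p from 0.00945 to 0.0415) and without both arrays (0.0117 to 0.0189). Against WT livers 1 member was called lower with 75th percentile scaling (S100a9) and 1 with array weights (S100a4). Over all genes 2884 and 2670 were called lower in these settings. Leaving out 1 array gave 2 to 3 members higher against WT, and 6 to 9 annexins against 6 to 8 in the comparison with KO. Over all genes these leave-outs called 1931 to 3486 higher against WT and 986 to 2241 against KO. Anxa10, at the dim level, changed sign against WT with 75th percentile scaling (-0.17), and over the leave-outs it ran from -0.0020 to 0.0894. That scaling moved the median of all genes to -0.18 (KO minus WT) and -0.19 (lines minus WT) and split the calls against WT into 2476 higher and 2884 lower, in place of 3506 and 2209. Without KO replicate 1 or 3, calls over all genes against KO fell to 986 higher and 1295 lower, or 1023 and 1287. The causes were not tested.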

Other observations

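Other genes with EF-hand calcium-binding loops, the fold that S100 proteins share, were measured beside the family. Of 32, 5 rose and 5 fell in the lines against KO livers, and 9 rose and 6 fell against WT livers. Of all genes, 11.4% and 10.1% were called higher and lower against KO and 17.6% and 11.1% against WT. The counts of higher genes moved by over 1.5 times without 1 array, to 2 without KO replicate 1 and 3 without KO replicate 3, and against WT to 4 without WT replicate 2 and 5 without WT replicate 3. Those that rose against KO were Gca, Ncs1, Cib1 (1.19), Actn1 (1.01) and Capns1 (0.73), and those that fell were Lcp1, Rcn3, Chp2, Rcn1 and Calml4 (-2.22). Gca, known as grancalcin, was at 5.44, 6.27 and 5.40 in the KO livers and at 9.21, 8.75 and 8.31 in the lines, a rise of 3.05 (SE 0.335, adjusted p = 0.00349). Ncs1, a neuronal calcium sensor, rose by 3.04 (SE 0.489, adjusted p = 0.0114), from 5.09 to 5.25 in the KO livers to 8.67, 7.08 and 8.85, and missed the threshold without KO replicate 3 (0.0512), and just missed it without KO replicate 1. Lcp1, the leukocyte plastin that bundles actin, fell by 4.07 (SE 0.719, adjusted p = 0.0151) and stood at 7.20, 8.76 and 5.89 in the lines. That call was lost without KO replicate 1 (0.0623), 2 (0.0507) or 3 (0.0596). Macrophage markers were lower in the lines for 17 of 17 genes, and their part in the Lcp1 difference was not tested. Rcn3, a calcium-binding protein of the endoplasmic reticulum, fell by 3.70 (SE 0.236, adjusted p = 0.000574) and its relative Rcn1 by 2.83 (SE 0.402, adjusted p = 0.00781). Chp2, a partner of sodium and proton exchangers, fell by 3.46 (SE 0.260, adjusted p = 0.000985).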
